A study of Mus musculus with 6 samples.

Results

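Mitochondrial fatty acid oxidation and ketone body genes were followed in the liver of B6.C3H-6T and C57BL/6J mice. A list of 43 genes was taken, and a gene entered where the platform annotation paired at least 1 probe set with that gene and no other. This held for 40 of the 43, out of 18194 genes with such a probe set, and each gene was represented by its brightest probe set, on average across the 6 arrays. Acsl1, Cpt1b and Ucp2 were not analysed here. For Cpt1b the only probe set listed is paired with other genes as well.

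The array series holds 3 C57BL/6J mice and 3 mice of B6.C3H-6T, a congenic strain that carries a stretch of C3H chromosome 6 on the C57BL/6J background and was studied for its low serum IGF-1. All 6 were females of 8 weeks on chow, each array held liver RNA of 1 mouse, and none was pooled or repeated. Replicate numbers only name the mice in accession order within a strain and pair no mice. The labels name no treatment, so the strain is the only factor, and the limits of the C3H segment are not given in the sources used here. Values are log2 signals, and each difference is the B6.C3H-6T mean less the C57BL/6J mean, given with the standard error of the fit. Array medians lay between 6.07 and 6.11. The 11 measured hepatocyte markers, among them Alb, Apoa1 and Cps1, read between 11.67 and 14.56 on every array.

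In this pathway a fatty acid is taken up and bound, activated to its acyl-CoA at the cost of ATP, and carried into the mitochondrion as a carnitine ester. There it is shortened by the repeated steps of the oxidation spiral, which pass electrons to the respiratory chain through electron transfer flavoprotein. In liver much of the acetyl-CoA formed during fasting becomes ketone bodies for other tissues. Many of these genes are known targets of PPAR alpha, a nuclear receptor that senses fatty acids and binds a direct repeat of AGGTCA-like units together with its partner RXR.

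Promoter sequences are shown for members of contrasting type. The start region of a lipid-binding gene with a TATA box, Fabp1, can so be set against others. These are a mitochondrial carrier (Slc25a20), mitochondrial enzymes (Eci1 and Acadl) and a gene linked to the pathway (Vnn3). Each run gives the 250 bases before the gene's start in RefSeq, build GRCm38.p6, read 5′ to 3′ along the gene. The runs are reference sequence and were not read from the mice of either strain. Capitals mark matches on either strand to 2 copies of AGGNCA with 1 base between them (a direct repeat of the PPAR type), to the unit AGGTCA, to TATAAA or to the GC box GGGCGG.
Fabp1, chr6:71199629-71199878, plus strand: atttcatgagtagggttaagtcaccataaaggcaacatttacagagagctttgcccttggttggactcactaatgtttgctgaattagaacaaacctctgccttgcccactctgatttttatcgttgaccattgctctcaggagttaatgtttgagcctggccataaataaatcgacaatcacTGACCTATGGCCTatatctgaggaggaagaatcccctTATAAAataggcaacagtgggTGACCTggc
Slc25a20, chr9:108661886-108662135, plus strand: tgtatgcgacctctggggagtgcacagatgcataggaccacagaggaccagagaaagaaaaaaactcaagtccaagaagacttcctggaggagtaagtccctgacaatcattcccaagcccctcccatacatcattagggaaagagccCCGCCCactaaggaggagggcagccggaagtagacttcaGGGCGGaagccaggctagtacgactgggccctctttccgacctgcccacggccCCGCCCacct
Eci1, chr17:24426433-24426682, plus strand: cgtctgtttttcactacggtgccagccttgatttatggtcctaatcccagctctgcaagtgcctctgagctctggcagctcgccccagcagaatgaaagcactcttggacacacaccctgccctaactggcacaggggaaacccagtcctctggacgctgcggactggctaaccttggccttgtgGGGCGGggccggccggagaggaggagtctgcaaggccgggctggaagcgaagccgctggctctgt
Acadl, chr1:66863310-66863559, minus strand: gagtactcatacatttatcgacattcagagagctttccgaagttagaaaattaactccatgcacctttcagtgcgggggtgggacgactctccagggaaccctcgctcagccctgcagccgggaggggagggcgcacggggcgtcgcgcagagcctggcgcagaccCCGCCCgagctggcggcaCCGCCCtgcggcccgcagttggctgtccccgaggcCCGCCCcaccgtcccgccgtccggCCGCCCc
Vnn3, chr10:23851212-23851461, plus strand: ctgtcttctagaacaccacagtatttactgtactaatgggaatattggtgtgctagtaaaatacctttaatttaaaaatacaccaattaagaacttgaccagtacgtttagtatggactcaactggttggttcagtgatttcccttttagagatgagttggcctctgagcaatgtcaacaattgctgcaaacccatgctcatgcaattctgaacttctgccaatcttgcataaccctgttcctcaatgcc
In Fabp1 the direct repeat lay on the opposite strand, 67 to 55 bases before the start, where it overlaps an AGGTCA unit, and a TATAAA stood 30 to 25 bases before it. Slc25a20, Eci1 and Acadl held GC boxes and none of the other marked motifs, and Vnn3 held none of the marked motifs.

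The motifs were searched in the whole 300-base windows, which run 50 bases past the start. Windows were found for 35 of the 40 measured members, 39 windows in all. The direct repeat occurred in Fabp1 alone, or 2.56% of member windows, against 0.381% of all 32851 windows. AGGTCA stood in 7 member windows (17.9%, against 16.3% of all), those of Acadm, Acadvl, Acsm1, Cpt1a, Creb3l3, Fabp1 and Slc27a2. GC boxes stood in 23 (59.0%, against 35.7%) and CCAAT, searched but not marked, in 18 (46.2%, against 37.4%). TATAAA was found in 1 member window, that of Fabp1, and in 13.6% of all. Of the 14 members named below as lower, 11 had a window, and 1 of these held AGGTCA and 9 a GC box. These are matches of letters and were not set against binding data.

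The comparison asked which steps of this pathway differ by strain. In the congenic mice, 33 of the 40 measured members had the lower mean, where 43.9% of all genes did, and the median member difference was -0.17 against 0.02 over all genes. Lower means were found at every step, while Acsl3, Acsl4 and Acsl5, long-chain acyl-CoA synthetases, had the higher mean. No member passed the test. At a limma adjusted p under 0.05 over all genes 0 of 40 were called, against 0.0715% of all genes, and the smallest adjusted p was 0.162, for Vnn1. At an unadjusted p under 0.05, 14 members were lower (35% of 40, against 5.8% of all genes) and 2 were higher (against 6.34%). Every B6.C3H-6T mouse lay below every C57BL/6J mouse for 11 members (27.5%, against 7.49%) and above for 1 (against 10.3%). Without moderated variances 0 of all genes were called, and 6 members were lower (against 3.88% of all genes) and 1 was higher at an unadjusted p under 0.05. Most members are bright, so they were also read against the 3241 genes with a mean of 9 or above, a background chosen after seeing the data. Of the 35 members among these, 29 had the lower mean (against 49.9%) and 0 were called (against 0.0926%). At an unadjusted p under 0.05, 13 were lower (37.1%, against 8.24%) and 2 higher (against 7.28%), and 11 lay below without overlap (31.4%, against 9.5%) and 1 above (against 9.72%).

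**Figure D1:**
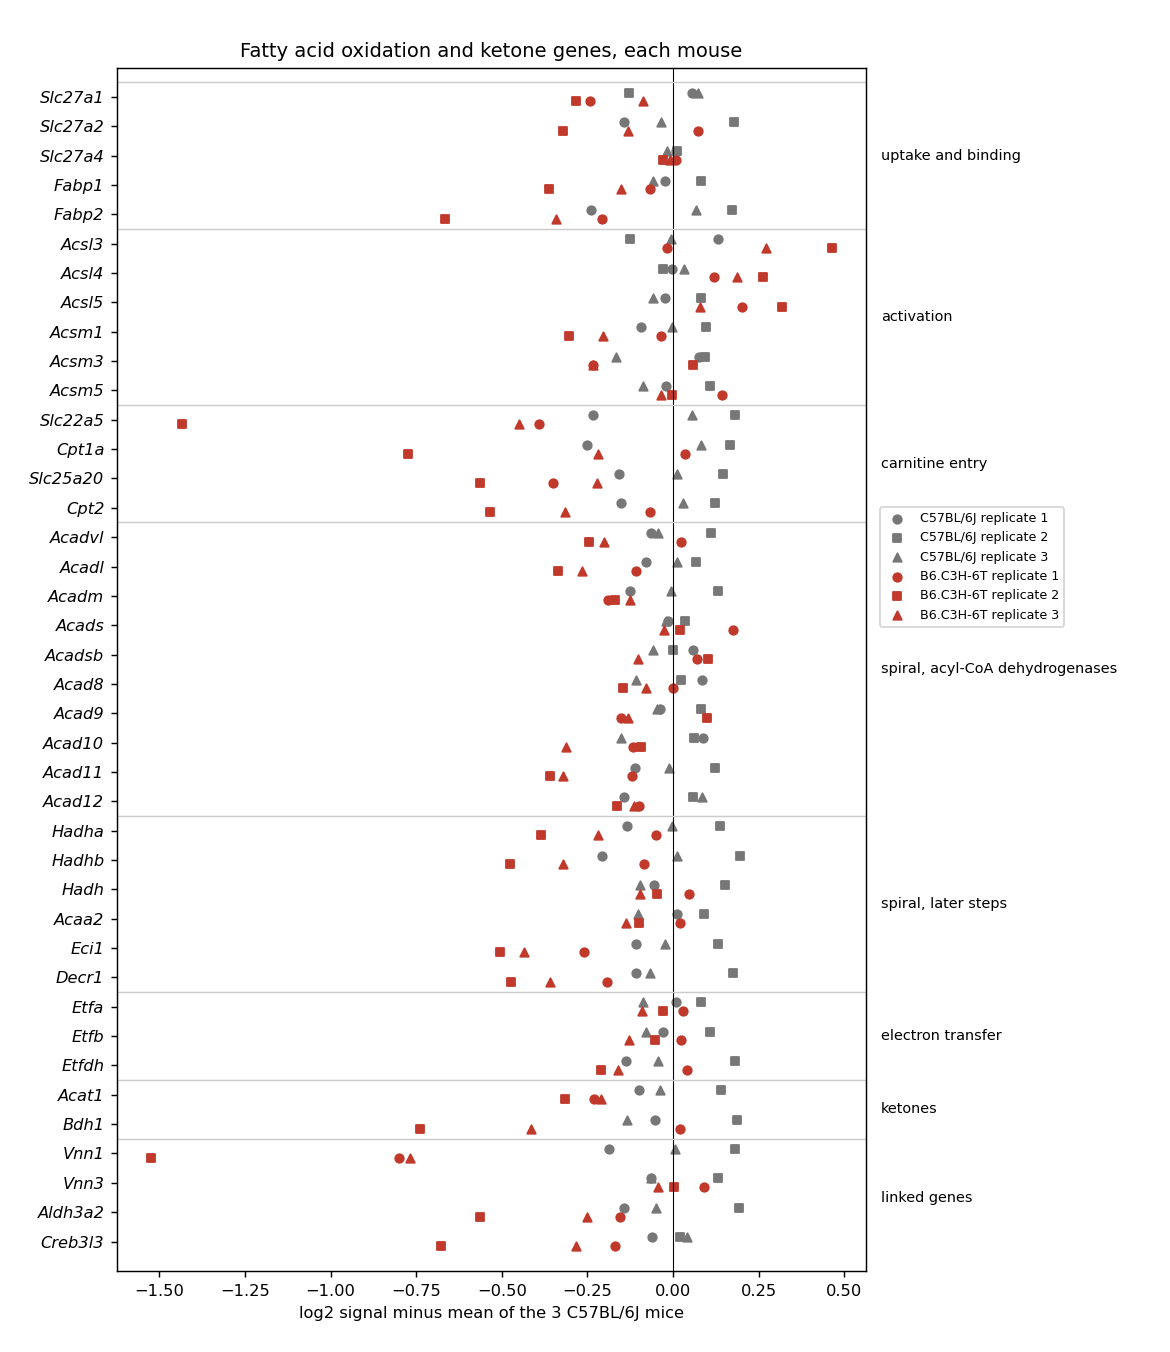
Each point is the log2 signal of 1 mouse minus the mean of the 3 C57BL/6J mice, for the 40 measured genes grouped by step (grey, C57BL/6J; red, B6.C3H-6T; the marker shape gives the replicate). Red points lie mostly to the left of grey points at carnitine entry and to the right for Acsl3, Acsl4 and Acsl5, and the red square, B6.C3H-6T replicate 2, is the lowest of all 6 mice for 25 genes.

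Both strains held a mouse that stood out in these genes. B6.C3H-6T replicate 2 had the lowest of all 6 values for 25 of the 40 members, where it was lowest for 18.1% of all genes. C57BL/6J replicate 2 had the highest value for 28 members, where it was highest for 19.1% of all genes. Members deviated from the C57BL/6J mean by a median of -0.27 in B6.C3H-6T replicate 2, -0.18 in replicate 3 and -0.06 in replicate 1. The C57BL/6J mice deviated by -0.07, 0.11 and -0.03 in the order of their replicates. Without B6.C3H-6T replicate 2, 8 members were lower at an unadjusted p under 0.05, 7 of them among the 14 and against 3.36% of all genes, and 0 were higher. Without C57BL/6J replicate 2 there were 9, all among the 14 and against 4.94% of all genes. With both of these mice left out, an alternative chosen after seeing the data, 5 of the 14 stayed under that threshold (12.5% of the members, against 3.08% of all genes). They were Creb3l3, Eci1, Slc22a5, Slc27a1 and Vnn1, and the median member difference was then -0.08.

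**Figure D2:**
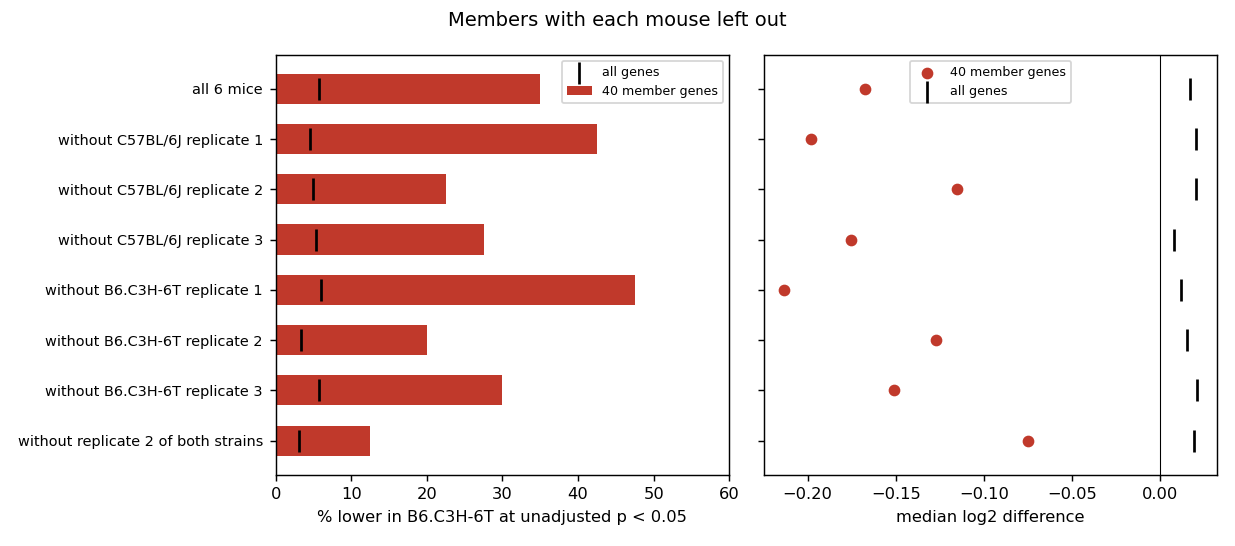
Bars give the percentage of the 40 members that were lower in B6.C3H-6T at an unadjusted p under 0.05 with all 6 mice or with the named mice left out, and black ticks the same over all 18194 genes; the right panel gives the median log2 difference of both. The member share was 35% with all mice and 12.5% without replicate 2 of both strains, and the member median stayed below 0 in each setting shown.

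Markers of other liver cells were read beside these genes. Of the Kupffer cell and myeloid markers, 9 of 9 had the lower mean in B6.C3H-6T (against 43.9% of all genes), as most members did. At an unadjusted p under 0.05 in limma, 7 of these markers were lower (against 5.8% of all genes). Their mean per array ran from 9.38 to 9.64 in C57BL/6J and from 9.04 to 9.29 in B6.C3H-6T, without overlap. The same mice were extreme, with B6.C3H-6T replicate 2 lowest for 8 of the 9 markers and C57BL/6J replicate 2 highest for 7. None of these markers passed over all genes in limma, and their lowest value, 6.98, lay above the array medians. Their part in the members' differences was not tested. In whole liver, fewer cells of a type and less RNA per cell cannot be told apart. Hepatocyte markers had a mean per array of 13.57 to 13.66 in C57BL/6J and 13.67 to 13.70 in B6.C3H-6T, narrowly without overlap. Of these markers 9 of 11 were higher in mean, as were 10204 of all 18194 genes. Cps1 and Tat, 2 of the 9, were higher at an unadjusted p under 0.05 in limma (against 6.34% of all genes). The ranges of endothelial (8.43 to 8.53 and 8.35 to 8.51), stellate (8.40 to 8.65 and 8.47 to 8.62), small intestine (6.23 to 6.29 and 6.24 to 6.40) and adipocyte markers (5.70 to 5.76 and 5.72 to 5.80) overlapped. So did those of lymphocyte (6.21 to 6.29 and 6.10 to 6.26) and muscle markers (5.18 to 5.32 and 5.30 to 5.37). Cholangiocyte (5.84 to 5.89 and 5.89 to 5.99), exocrine pancreas (6.38 to 6.45 and 6.44 to 6.51) and erythroid markers (6.09 to 6.12 and 6.01 to 6.06) gave the remaining ranges, of which those of the erythroid markers did not overlap.

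Uptake and binding genes had the lower mean in 5 of 5 cases, with a median of -0.19, and 2 were lower at an unadjusted p under 0.05. The counts of this and every later step have the same background. Of all genes, 43.9% had the lower mean, and 5.8% were lower and 6.34% higher at that threshold. Fabp1, the main fatty acid binding protein of liver, read 14.09, 14.20 and 14.06 in C57BL/6J replicates 1 to 3 and 14.05, 13.76 and 13.97 in B6.C3H-6T replicates 1 to 3. The strains did not overlap, by a small gap, and Fabp1 differed by -0.19 ± 0.09 (adjusted p = 0.418), or by -0.11 without B6.C3H-6T replicate 2. Fabp1 is the only member on chromosome 6, which carries the C3H DNA, so a difference of its own sequence and one that acts through other genes cannot be told apart. Its other probe set differed by -0.13 ± 0.08 and overlapped. Fabp2, the intestinal form of this binding protein, read 10.15, 10.56 and 10.46 in the C57BL/6J mice and 10.18, 9.72 and 10.05 in the B6.C3H-6T mice. It differed by -0.41 ± 0.14 (adjusted p = 0.326), and B6.C3H-6T replicate 1 lay above C57BL/6J replicate 1. Among fatty acid transport proteins, Slc27a1 read 7.61, 7.42 and 7.63 in the C57BL/6J mice and 7.31, 7.27 and 7.46 in the B6.C3H-6T mice, a difference of -0.20 ± 0.08 (adjusted p = 0.383). C57BL/6J replicate 2 lay within the range of the other strain, and the other probe set of Slc27a1 differed by 0.02 ± 0.10. Slc27a2, which also activates very long-chain fatty acids, differed by -0.13 ± 0.11 with a 95% interval of -0.38 to 0.13, and Slc27a4 by -0.01 ± 0.06 (-0.14 to 0.12).

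Activation was the step with most members higher in mean, 4 of 6. The long-chain synthetase genes Acsl3, Acsl4 and Acsl5 had the higher mean, and Acsm1 and Acsm3, which activate medium-chain acids, the lower. Acsl1, also of this step, was not measured. The step's median was 0.11, and 2 of 6 were higher and 0 lower at an unadjusted p under 0.05. Acsl4, which favours arachidonic acid, read 9.31, 9.28 and 9.34 in the C57BL/6J mice and 9.43, 9.57 and 9.49 in the B6.C3H-6T mice, with every B6.C3H-6T mouse above every C57BL/6J mouse. The difference was 0.19 ± 0.07 (adjusted p = 0.333), and its 2 other probe sets differed by 0.10 ± 0.07 and 0.06 ± 0.09. Without B6.C3H-6T replicate 2 Acsl4 differed by 0.15, and its unadjusted p in limma was no longer under 0.05. Acsl5 read 12.03, 12.14 and 11.998 in the C57BL/6J mice and 12.26, 12.38 and 12.14 in the B6.C3H-6T mice, where B6.C3H-6T replicate 3 lay just below C57BL/6J replicate 2, and differed by 0.20 ± 0.08 (adjusted p = 0.381). Its unadjusted p in limma was under 0.05 in 2 of the 6 fits without 1 mouse. Acsl3 differed by 0.24 ± 0.12 (adjusted p = 0.468), or by 0.13 without B6.C3H-6T replicate 2 and 0.37 without replicate 1, and its 2 other probe sets by 0.11 ± 0.15 and 0.06 ± 0.07. The medium-chain genes Acsm1, Acsm3 and Acsm5 differed by -0.18 ± 0.09, -0.14 ± 0.10 and 0.03 ± 0.08, with adjusted p from 0.443 to 0.892. None passed.

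Carnitine entry had the lowest median of the steps in the pathway proper, -0.35 over 4 measured genes, all with the lower mean and 3 at an unadjusted p under 0.05. Without replicate 2 of both strains the median was -0.17. Slc22a5, the plasma membrane carnitine transporter OCTN2, read 9.70, 10.12 and 9.99 in C57BL/6J replicates 1 to 3 and 9.55, 8.50 and 9.49 in B6.C3H-6T replicates 1 to 3. All B6.C3H-6T mice lay below the C57BL/6J mice, with replicate 2 far below the others of its strain. The difference was -0.76 ± 0.25 (1.69-fold lower, adjusted p = 0.316), and without that mouse it was -0.42. Its other probe set differed by -0.75 ± 0.16. Slc25a20, the carnitine-acylcarnitine translocase of the inner membrane, read 11.23, 11.53 and 11.40 in the C57BL/6J mice and 11.03, 10.82 and 11.16 in the B6.C3H-6T mice, without overlap. It differed by -0.38 ± 0.11 (adjusted p = 0.273), and its other probe set by -0.41 ± 0.10.

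Cpt1a, the liver form of the enzyme that controls entry and is inhibited by malonyl-CoA, read 11.57, 11.99 and 11.90 in the C57BL/6J mice and 11.86, 11.05 and 11.60 in the B6.C3H-6T mice. The strains overlapped, since B6.C3H-6T replicates 1 and 3 both lay above C57BL/6J replicate 1. The difference was -0.32 ± 0.19 (adjusted p = 0.536) with a 95% interval of -0.75 to 0.11, and -0.09 without B6.C3H-6T replicate 2. Its other 2 probe sets differed by -0.37 ± 0.17 and -0.45 ± 0.17, and the second of these did not overlap. Cpt2, which frees the acyl-CoA inside the mitochondrion, read 11.30, 11.57 and 11.48 in the C57BL/6J mice and 11.38, 10.91 and 11.13 in the B6.C3H-6T mice. B6.C3H-6T replicate 1 lay above C57BL/6J replicate 1, and the difference was -0.31 ± 0.12 (adjusted p = 0.377), or -0.19 without B6.C3H-6T replicate 2.

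**Figure D3:**
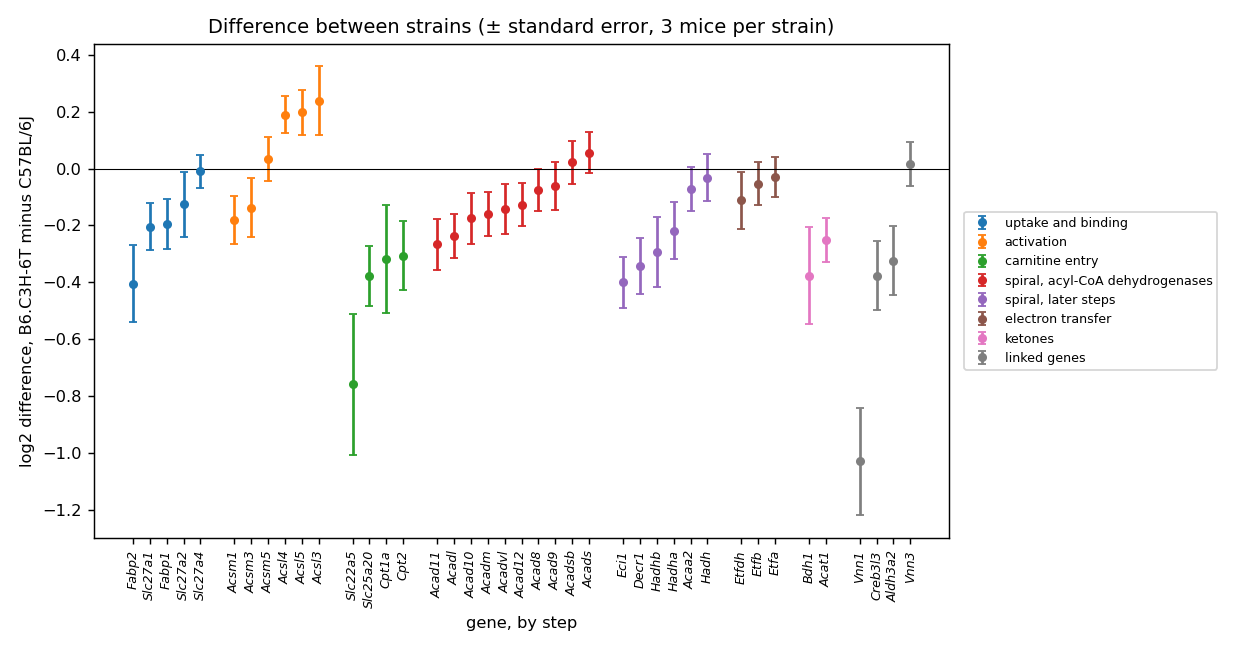
Points are log2 differences, B6.C3H-6T minus C57BL/6J, with bars of ± 1 standard error of the fit (3 mice per strain), and genes are grouped by step. Carnitine entry genes all lie below 0, from -0.76 to -0.31, activation genes lie on both sides, electron transfer genes lie near 0, and Vnn1 is the lowest at -1.03.

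The acyl-CoA dehydrogenases, which open each turn of the spiral, had the lower mean in 8 of 10 cases, with a median of -0.13, and 2 were lower at an unadjusted p under 0.05. Acadl, the long-chain enzyme, read 11.61, 11.76 and 11.70 in the C57BL/6J mice and 11.58, 11.36 and 11.42 in the B6.C3H-6T mice, without overlap, and differed by -0.24 ± 0.08 (adjusted p = 0.323). A dim second probe set of Acadl differed by -0.01 ± 0.07. Acad11, a family member for very long chains, read 12.08, 12.32 and 12.18 in the C57BL/6J mice and 12.07, 11.83 and 11.87 in the B6.C3H-6T mice. These strains did not overlap either, by a margin under the spread within a strain, and the difference was -0.27 ± 0.09 (adjusted p = 0.325), with -0.20 ± 0.08 in its other probe set. Acadm, the medium-chain enzyme that is a standard PPAR alpha target, read 12.35, 12.61 and 12.47 in the C57BL/6J mice and 12.29, 12.31 and 12.35 in the B6.C3H-6T mice. The B6.C3H-6T mice lay close together and B6.C3H-6T replicate 3 touched the range of C57BL/6J. Acadm differed by -0.16 ± 0.08 (adjusted p = 0.446), or by -0.10 without C57BL/6J replicate 2.

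The very long-chain gene Acadvl differed by -0.14 ± 0.09, Acad10 by -0.17 ± 0.09 and Acad12 by -0.13 ± 0.08. Acad9, which also serves assembly of respiratory complex I, differed by -0.06 ± 0.08. The short-chain gene Acads differed by 0.06 ± 0.07 with a 95% interval of -0.11 to 0.22. The enzymes of branched amino acid breakdown, Acadsb and Acad8, differed by 0.02 ± 0.08 (-0.15 to 0.19) and -0.08 ± 0.07 (-0.24 to 0.09).

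The later steps of the spiral had the lower mean in 6 of 6 cases, with a median of -0.26, and 3 were lower at an unadjusted p under 0.05. Eci1 and Decr1, the auxiliary isomerase and reductase that let unsaturated fatty acids through the spiral, had the most negative differences of the step. Eci1 read 11.14, 11.38 and 11.23 in C57BL/6J replicates 1 to 3 and 10.99, 10.75 and 10.82 in B6.C3H-6T replicates 1 to 3, with a clear gap between the strains. It differed by -0.40 ± 0.09 (1.32-fold lower, adjusted p = 0.216), and by -0.47 to -0.33 without any 1 mouse. Decr1 read 12.09, 12.37 and 12.13 in the C57BL/6J mice and 11.999, 11.72 and 11.83 in the B6.C3H-6T mice, also without overlap, and differed by -0.34 ± 0.10 (adjusted p = 0.28). Its other probe set differed by -0.63 ± 0.12.

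Hadha and Hadhb encode the subunits of the trifunctional protein, which carries out the remaining steps on long chains. Hadha read 11.63, 11.90 and 11.76 in the C57BL/6J mice and 11.71, 11.38 and 11.54 in the B6.C3H-6T mice, and Hadhb 11.48, 11.88 and 11.70 in the C57BL/6J mice and 11.60, 11.21 and 11.36 in the B6.C3H-6T mice. In both genes B6.C3H-6T replicate 1 lay above C57BL/6J replicate 1, and the other 2 B6.C3H-6T mice lay below all C57BL/6J mice. Hadha differed by -0.22 ± 0.10 (adjusted p = 0.431), with -0.13 without B6.C3H-6T replicate 2, and Hadhb by -0.29 ± 0.12 (adjusted p = 0.391), and the 2 other probe sets of Hadhb by -0.28 ± 0.12 and -0.18 ± 0.07. The short-chain dehydrogenase gene Hadh differed by -0.03 ± 0.08 (-0.22 to 0.15) and the thiolase gene Acaa2 by -0.07 ± 0.08 (-0.24 to 0.10).

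Electron transfer genes stood closest to 0 as a step, with a median of -0.05, and 0 of 3 had an unadjusted p under 0.05. Etfa and Etfb, the subunits of electron transfer flavoprotein, differed by -0.03 ± 0.07 (95% interval -0.19 to 0.13) and -0.05 ± 0.07 (-0.22 to 0.12). Etfdh, its dehydrogenase in the inner membrane, differed by -0.11 ± 0.10 (-0.34 to 0.11). A dim other probe set of Etfdh differed by -0.20 ± 0.07, without overlap and at an unadjusted p under 0.05 in limma. All 3 intervals of the representing probe sets hold the median of the acyl-CoA dehydrogenases, -0.13, so a difference of that size cannot be told from none here.

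Both ketone genes had the lower mean. Acat1, the mitochondrial thiolase that joins acetyl-CoA units, read 12.57, 12.81 and 12.64 in the C57BL/6J mice and 12.44, 12.36 and 12.47 in the B6.C3H-6T mice. Every B6.C3H-6T mouse lay below the C57BL/6J mice, in a tight group, and Acat1 differed by -0.25 ± 0.08 (adjusted p = 0.298). Its 2 other probe sets differed by -0.33 ± 0.09 and -0.25 ± 0.08, also without overlap. Bdh1, which interconverts acetoacetate and 3-hydroxybutyrate, read 12.01, 12.24 and 11.92 in the C57BL/6J mice and 12.08, 11.32 and 11.64 in the B6.C3H-6T mice. B6.C3H-6T replicate 1 lay among the C57BL/6J mice, and the other 2 lay below. The difference was -0.38 ± 0.17 (adjusted p = 0.42), and -0.20 without replicate 2 of that strain, while its other probe set differed by -0.56 ± 0.19 without overlap.

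Genes linked to the pathway by their control had the most negative member of all. Vnn1, the pantetheinase that frees cysteamine and pantothenate and is a known PPAR alpha target, read 11.24, 11.61 and 11.43 in C57BL/6J replicates 1 to 3 and 10.62, 9.90 and 10.66 in B6.C3H-6T replicates 1 to 3. All B6.C3H-6T mice lay below the lowest C57BL/6J mouse by more than the range within C57BL/6J. Vnn1 differed by -1.03 ± 0.19 (2.04-fold lower, adjusted p = 0.162; -0.78 without B6.C3H-6T replicate 2), and its other probe set by -1.37 ± 0.20. Its relative Vnn3 differed by 0.02 ± 0.08. The 95% intervals, -1.46 to -0.60 for Vnn1 and -0.16 to 0.19 for Vnn3, did not overlap, but the difference between the genes was not tested. Creb3l3, a liver transcription factor of fasting, read 11.52, 11.61 and 11.63 in the C57BL/6J mice and 11.42, 10.91 and 11.30 in the B6.C3H-6T mice. It differed by -0.38 ± 0.12 (adjusted p = 0.308) without overlap, or by -0.23 without B6.C3H-6T replicate 2. Aldh3a2, which oxidises fatty aldehydes, read 11.17, 11.51 and 11.26 in the C57BL/6J mice and 11.16, 10.75 and 11.06 in the B6.C3H-6T mice. The strains barely failed to overlap, and the difference was -0.32 ± 0.12 (adjusted p = 0.359). Without B6.C3H-6T replicate 2 it was -0.20, and the unadjusted p was no longer under 0.05.

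Other probe sets of the members gave a second reading of the same mice. Of 29 such probe sets for 21 members, 26 had the sign of the representing probe set. The 3 with the opposite sign were those of Slc27a1 (0.02), Acad10 (0.07) and Acad9 (0.00). For the 14 lower members there were 12 others, from 10 genes, of which 11 were lower, 9 of them at an unadjusted p under 0.05. The 14 were picked as lower in these same mice, so this count is no separate support for them. No share for genes picked the same way outside the members is given beside it. Fabp2, Creb3l3, Eci1 and Aldh3a2 were read by 1 probe set each. None of the 29 passed when adjusted over all 45037 probe sets in limma, and the smallest adjusted p was 0.0813, for Vnn1.

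**Figure D4:**
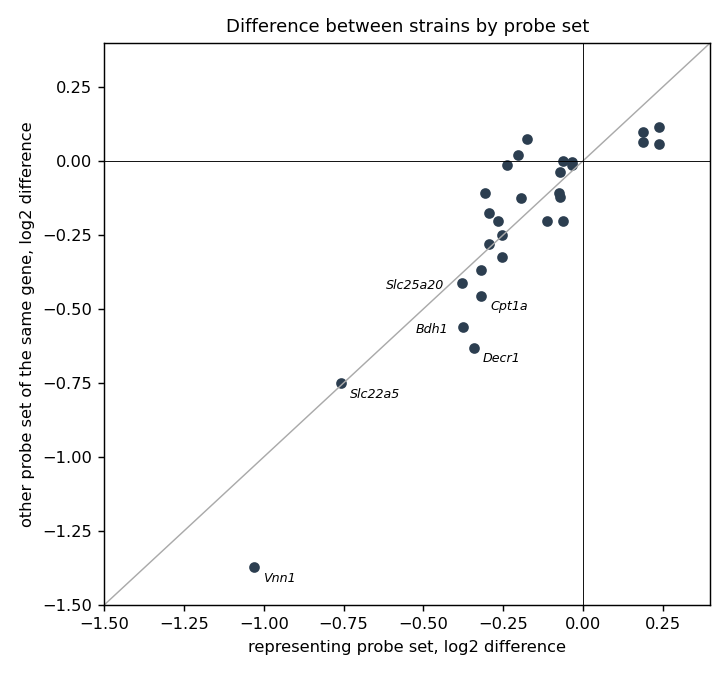
Each point is 1 of the 29 other probe sets, with its log2 difference between strains (y) against that of the probe set that represents the same gene (x), and the grey line marks equality. Of the points, 26 have the same sign on both axes, and those of Vnn1, Decr1 and Bdh1 lie below the line.

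Other genes of the pathway were read from lists of 60 genes outside the members, of which 54 were measured. Here 7 were lower (13.0%, against 5.8% of all genes) and 8 higher (against 6.34%) at an unadjusted p under 0.05. The median was 0.03, and 0 passed over all genes in limma. The counts of each list below use the same threshold and have the same shares of all genes as background. Among 6 measured genes of ketone synthesis, use and export 1 was lower and 1 higher. Slc16a1, the transporter MCT1 of lactate and ketone bodies, read 10.39, 10.56 and 10.67 in the C57BL/6J mice and 10.18, 10.07 and 9.998 in the B6.C3H-6T mice, without overlap, and differed by -0.46 ± 0.09 (adjusted p = 0.177). Aacs, which turns acetoacetate into a lipid precursor in the cytosol, read 8.12, 8.16 and 8.11 in the C57BL/6J mice and 8.33, 9.09 and 8.87 in the B6.C3H-6T mice and differed by 0.63 ± 0.16 (adjusted p = 0.249). Bdh2 differed by 0.12 ± 0.12 and the ketone-using enzyme gene Oxct1 by -0.12 ± 0.12.

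Of 9 other enzymes of the spiral and of odd chains, 1 was lower and 1 higher. Eci2, an isomerase like Eci1 but shared with the peroxisome, read 11.07, 11.40 and 11.23 in the C57BL/6J mice and 11.05, 10.36 and 10.89 in the B6.C3H-6T mice, and differed by -0.47 ± 0.16 (adjusted p = 0.333). Ivd of leucine breakdown differed by 0.15 ± 0.06 (adjusted p = 0.389), Hsd17b10 by 0.14 ± 0.10 and Pcca by 0.14 ± 0.11. Of 13 other acyl-CoA synthetase and binding protein genes, 1 was lower and 4 higher. Acss2, which makes cytosolic acetyl-CoA from acetate, read 11.48, 11.14 and 11.23 in the C57BL/6J mice and 11.67, 12.39 and 11.92 in the B6.C3H-6T mice, with every B6.C3H-6T mouse above the C57BL/6J mice, and differed by 0.71 ± 0.17 (adjusted p = 0.223). Slc27a3 differed by 0.26 ± 0.08, on signals below every array median, Fabp4, known from adipocytes and macrophages, by 0.27 ± 0.11, and Fabp5 by -0.48 ± 0.17.

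The 12 genes that act on malonyl-CoA, AMPK and carnitine esters had 2 lower and 1 higher. Acacb, the acetyl-CoA carboxylase at the mitochondrion whose malonyl-CoA inhibits CPT1, read 9.24, 9.08 and 9.22 in the C57BL/6J mice and 9.54, 10.09 and 9.53 in the B6.C3H-6T mice, with every B6.C3H-6T mouse above, and differed by 0.54 ± 0.14 (adjusted p = 0.256). Acaca, the cytosolic form, differed by 0.57 ± 0.26 (adjusted p = 0.419), and its highest value, 11.01, was in B6.C3H-6T replicate 2. Crat, the carnitine acetyltransferase, read 8.71, 8.91 and 9.15 in the C57BL/6J mice and 8.25, 8.45 and 8.48 in the B6.C3H-6T mice, with all B6.C3H-6T mice below, and differed by -0.53 ± 0.11 (adjusted p = 0.203). Prkaa1, a catalytic subunit of AMPK, differed by -0.25 ± 0.10, also on signals below every array median. Of 14 genes for PPAR alpha, its partners and coactivators, 2 were lower and 1 higher. Ppara itself read 11.29, 11.42 and 11.25 in the C57BL/6J mice and 11.19, 10.50 and 10.96 in the B6.C3H-6T mice, without overlap, and differed by -0.43 ± 0.15 (adjusted p = 0.333). Fgf21, a fasting hormone gene under PPAR alpha, read 6.14, 6.47 and 6.53 in the C57BL/6J mice and 6.10, 5.92 and 6.09 in the B6.C3H-6T mice, and differed by -0.34 ± 0.11 (adjusted p = 0.298). The Fgf21 signals in B6.C3H-6T lay below their array medians. B6.C3H-6T replicate 2 was the lowest of all 6 mice for Ppara, Fgf21 and Eci2 and the highest for Aacs, Acss2, Acacb and Acaca. It was neither for Slc16a1 and Crat. Differences without that mouse are not given for the genes of these lists. The coactivator gene Ppargc1a differed by 0.23 ± 0.09 and Esrra by 0.12 ± 0.08.

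**Figure D5:**
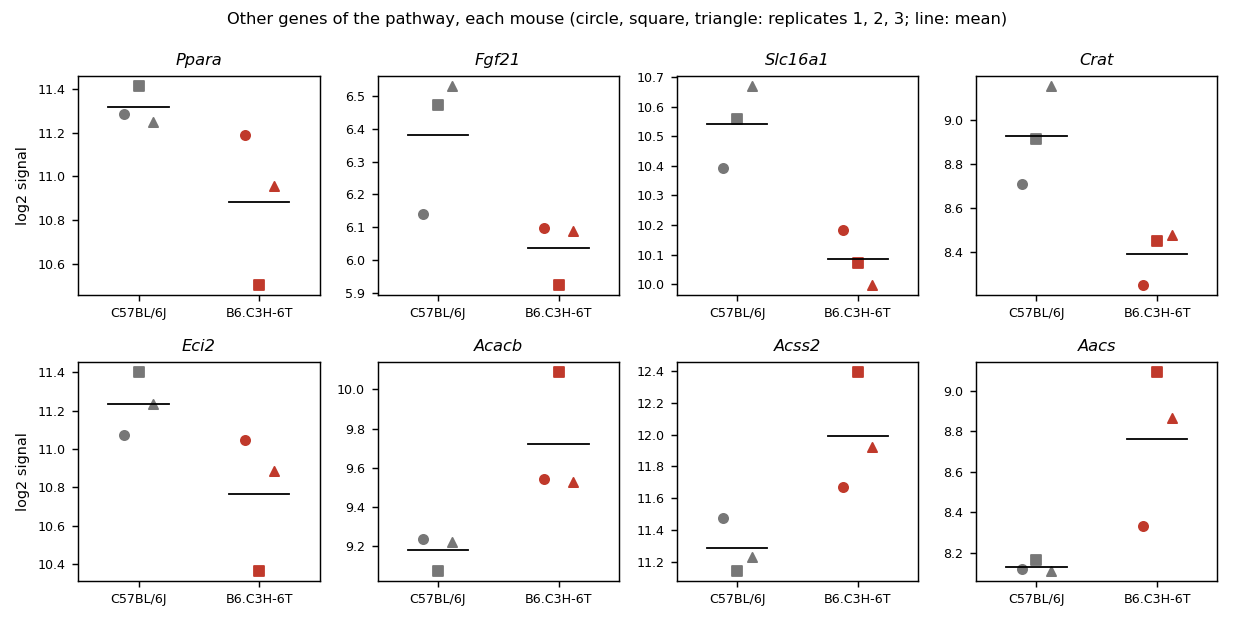
Each panel gives the log2 signal of 1 gene outside the members in each mouse (grey, C57BL/6J; red, B6.C3H-6T; shapes for replicates 1 to 3; black line, mean of 3 mice), with its own y axis that does not start at 0; the Fgf21 signals lie near the array medians. The panels show genes of small p in their lists, so the lack of overlap in all 8 follows from the choice. B6.C3H-6T is lower for Ppara, Fgf21, Slc16a1, Crat and Eci2 and higher for Acacb, Acss2 and Aacs. Of these genes 0 passed over all genes in limma. Among all 54 measured genes of these lists, 39 overlapped and 5 lay below without overlap (9.26%, against 7.49% of all genes). The other 10 lay above (against 10.3% of all genes).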

How the data were processed

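Liver RNA of 6 mice was measured on Affymetrix arrays. Each value is a log2 signal of 1 probe set, deposited by the authors and computed with RMA and affy per the submitters' processing notes, after image quantification with GCOS 1.2 per the labels. Their versions and any later step are not given in the sources used here. Of 45101 probe sets, 64 controls were left out. Of the 45037 tested, 34945 were paired with 1 gene, 932 with several and 9160 are unnamed here. Symbols were updated through gene identifiers to RefSeq, GRCm38.p6.

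limma 3.58.1 in R 4.3.3 (lmFit, eBayes) compared the strains on all probe sets, with no filter or covariate, and p-values were adjusted by Benjamini-Hochberg over 18194 genes, with 0.05 as the threshold. The fit was also run on simulated data with known changes and independent noise for each probe set, and the outcome is not given here. That simulation held no mouse that differs across many genes, so it does not speak to the extreme mice above. The number of arrays, 3 per strain, limits the precision.

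The members, steps and lists were chosen with earlier results of these data known, so no list was tested. Every member is named. Values per mouse are given for those with an unadjusted p under 0.05 or no overlap and for Cpt1a, Cpt2, Acadm, Hadha, Fabp1, Acat1 and Bdh1. From each pathway list up to 4 genes of smallest p are named. Alternatives changed the left-out mouse, the probe set, the dim filter, the scaling, the variance model, array weights and the adjustment.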

Additional observations from a re-analysis of the deposited data

How the results depend on the processing

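No member was called under any of the alternatives run, and the median member difference stayed between -0.21 and -0.08. The 14 lower members at an unadjusted p under 0.05 became 6 without moderated variances (against 3.88% of all genes). They became 8 to 19 without 1 mouse (against 3.36% to 5.99%) and 5 without replicate 2 of both strains (against 3.08%). The 2 higher members became 1 when each gene took its probe set of median p or the mean of its probe sets, with arrays centred on their median or no moderated variances, 3 after quantile normalization, 0 to 2 without 1 mouse, and 0 without replicate 2 of both strains. Members below the other strain without overlap, 11 in all mice, numbered 12 to 19 without 1 mouse, where the share of all genes went from 7.49% to between 9.88% and 13.4%. Members above it, 1 in all mice, became 0 with those same 2 choices of probe set and 2 after quantile normalization. They became 1 to 3 without 1 mouse and 3 without replicate 2 of both strains. With all mice, 6.34% of all genes were higher at an unadjusted p under 0.05 and 10.3% lay above without overlap. These higher shares are not given for the alternatives, so the higher counts there have no background beside them. Fewer mice make overlap less likely.

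Without replicate 2 of both strains the medians were -0.069 for uptake and binding, -0.17 for carnitine entry, -0.085 for the acyl-CoA dehydrogenases, -0.086 for the later spiral steps, 0.010 for electron transfer, -0.13 for ketones and -0.16 for linked genes. In that setting the activation median stayed positive, and 28 members had the lower mean, against 33 with all mice. The electron transfer median ran from -0.093 to 0.00096 without 1 mouse. Signs changed for genes near 0. After centring, Acadsb was -0.0031 and Vnn3 -0.0093, and after quantile normalization Slc27a4 was 0.029 and Vnn3 -0.0037. Without 1 mouse the ranges were -0.020 to 0.081 for Vnn3, -0.081 to 0.044 for Hadh, -0.074 to 0.011 for Etfa, -0.093 to 0.00096 for Etfb, -0.020 to 0.088 for Acsm5, -0.017 to 0.085 for Acadsb and -0.0032 to 0.10 for Acads. Without replicate 2 of both strains, Slc27a2 was 0.060, Slc27a4 0.0045, Acadsb -0.017, Hadh 0.051, Etfa 0.010, Etfb 0.00071 and Etfdh 0.030. The cause was not tested.

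Of the 16 members at an unadjusted p under 0.05, 7 stayed there without each mouse in turn. The same count was not made over all genes, so it has no background beside it and cannot be read as particular to the members. Leaving out replicate 2 of both strains was chosen after seeing the data. No paired analysis was possible because the labels give no replicate numbers, and those used here only name the mice in accession order.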
